A study of Mus musculus with 6 samples.

Results

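The nuclear genes of oxidative phosphorylation were followed in germ cells of the fetal mouse testis. Members were the rows of the count table whose symbols begin with the usual roots of these genes (Nduf followed by a subunit letter, Sdha to Sdhd, Uqcr, Cyc1, Cycs, Cox4 to Cox8 and Atp5) and that held at least 20 unique molecular identifiers (UMIs, tags that mark single captured transcripts) over all cells. Of 27998 rows, 87 matched the names and 84 passed the minimum. Complex I had 36 of these genes, complex II 4, complex III 9, complex IV 17 and the ATP synthase (complex V) 17, and Cycs encodes the carrier cytochrome c. The least abundant member, Cox7b2, had 282 UMIs, and the rows that missed the minimum were Cox4i2 with 10 and Cox6a2 and Cox8b with 0.

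Oxidative phosphorylation passes electrons from NADH (complex I) and succinate (complex II) through complex III and cytochrome c to oxygen at complex IV, and the ATP synthase uses the resulting proton gradient to make ATP. Complexes I, III, IV and V mix subunits encoded in the nucleus with subunits encoded in mitochondrial DNA, while complex II is wholly nuclear. Several complex IV subunits exist as a widely expressed form and a form typical of muscle, testis or other tissues, and the transcription factors NRF1, GABP, YY1 and the estrogen-related receptors are known to bind promoters of many of these genes.

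Cells came from male fetuses at embryonic day 14.5 on a mixed C57/B6 and 129 background, and were sorted for the red fluorescent protein tdTomato before droplet sequencing of transcript 3' ends with 10x Genomics v2 chemistry. The 3 control samples were labelled wildtype and the other 3 carried a conditional knockout (cKO) of Rb1, the retinoblastoma tumour suppressor that restrains entry into the cell cycle. The Cre driver, the deleted part of Rb1 and the source of the tdTomato signal were not given in the sources used here. The labels do not say whether samples of a group were separate animals or litters. The p-values therefore reflect variation among these libraries, some of which may be technical.

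The comparison used 5154 cells, between 430 and 1354 per sample, with 7598511 to 17323152 UMIs per sample and a median of 12748.5 to 17602 UMIs per cell. A total of 9 barcode sequences occurred in more than 1 library. Germ cell markers (Dazl, Ddx4, Pou5f1 and 5 others) summed to between 8867 and 9280 CPM (UMIs scaled to a common library total) in each of the authors' 5 clusters, where no list of another cell type exceeded 59.6 CPM. Sertoli cell markers reached 26.4 CPM in control 3 against 5.94 to 13.1 CPM in the other libraries, and erythroid markers 6.02 CPM in cKO 1 against 21.4 to 33.2 CPM. The Leydig cell markers Hsd3b1 and Insl3 were at 0. Rb1 stood at 10.3, 8.65 and 7.13 CPM in controls and at 3.35, 3.73 and 3.64 CPM in cKO libraries, on 27 to 119 UMIs. The groups did not overlap, and the log2 fold change was -1.27 ± 0.19 (SE). The edgeR test gave an unadjusted p of 7.2e-05 and an adjusted p of 0.415. A tag read at the transcript end may come from sequence that the deletion left in place, so Rb1 levels need not report the deletion.

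Promoters were inspected for the motifs of the factors named above, on both strands, in RefSeq windows of 300 bases (250 before the transcript start and 50 after it, build GRCm38.p6), which were found for 70 of the 84 members. The NRF1 motif (GCGCA, any base, GCGC) was in 17 of the 70 windows, or 24.3%, against 5.19% of all genes with a window. The YY1 motif AAGATGGCG was in 8 (11.4% against 1.64%), the GABP motif CCGGAAGT in 5 (7.14% against 4.31%) and the estrogen-related receptor motif TNAAGGTCA in 3 (4.29% against 1.43%). The comparison set was all 27025 genes with a window, whether or not expressed in these cells, and was not matched for base content. The 250 bases before the start are shown for Sdhd and Ndufs6, as examples with an NRF1 match, for Atp5g3, with a receptor match, and for the paired isoforms Cox6b1 and Cox6b2, which had no match in the stretch shown and whose levels parted between clusters as described further on. Each runs 5' to 3' on the gene's strand, with the matched motif in capitals. Beyond the stretch shown, the window of Sdhd also held a receptor match, that of Ndufs6 a YY1 match and that of Atp5g3 an NRF1 match. For Sdhd the sequence at the RefSeq start did not match the start of a GENCODE transcript.
Sdhd, upstream of the start at chr9:50603850-50604099, minus strand: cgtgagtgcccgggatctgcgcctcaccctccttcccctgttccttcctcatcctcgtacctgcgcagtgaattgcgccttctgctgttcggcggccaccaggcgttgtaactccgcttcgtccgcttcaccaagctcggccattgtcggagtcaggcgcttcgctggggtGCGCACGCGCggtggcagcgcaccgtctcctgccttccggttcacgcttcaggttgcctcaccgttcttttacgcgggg
Ndufs6, upstream of the start at chr13:73328483-73328732, minus strand: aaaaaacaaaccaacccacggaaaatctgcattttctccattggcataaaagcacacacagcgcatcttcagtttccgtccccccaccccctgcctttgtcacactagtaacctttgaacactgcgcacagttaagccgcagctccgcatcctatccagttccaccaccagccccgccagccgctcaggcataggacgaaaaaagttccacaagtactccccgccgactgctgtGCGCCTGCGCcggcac
Atp5g3, upstream of the start at chr2:73911327-73911576, minus strand: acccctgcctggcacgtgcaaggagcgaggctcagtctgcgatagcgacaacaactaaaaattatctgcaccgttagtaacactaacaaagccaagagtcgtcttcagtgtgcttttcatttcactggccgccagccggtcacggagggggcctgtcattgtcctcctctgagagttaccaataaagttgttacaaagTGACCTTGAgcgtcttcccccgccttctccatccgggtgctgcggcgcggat
Cox6b1, upstream of the start at chr7:30626115-30626364, minus strand: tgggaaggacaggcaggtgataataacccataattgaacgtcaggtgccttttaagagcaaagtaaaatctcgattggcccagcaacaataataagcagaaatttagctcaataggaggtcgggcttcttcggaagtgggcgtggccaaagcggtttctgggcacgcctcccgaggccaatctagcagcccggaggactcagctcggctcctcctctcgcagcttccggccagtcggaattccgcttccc
Cox6b2, upstream of the start at chr7:4753095-4753344, minus strand: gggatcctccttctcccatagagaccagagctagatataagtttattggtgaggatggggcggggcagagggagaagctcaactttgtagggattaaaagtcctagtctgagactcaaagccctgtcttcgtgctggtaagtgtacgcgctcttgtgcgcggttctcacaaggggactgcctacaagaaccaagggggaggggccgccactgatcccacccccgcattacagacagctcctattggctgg
These matches describe letters in a window and were not read as bound sites. The median log2 fold change between cKO and control was -0.06 for the 17 members with the NRF1 motif and -0.08 for the 53 members without it.

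Transcripts of these genes were abundant in every library and made up 4.47% of all UMIs. All 84 members were detected in all 6 samples and passed the filter on low counts. By complex, complex I gave 29.5% of the members' CPM, complex IV 29.0%, complex V 28.9%, complex III 10.2%, complex II 1.5% and Cycs 1.05%. Levels are in CPM scaled with TMM factors. A 3' tag counts 1 molecule whatever the transcript's length, so these levels were not divided by length.

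**Figure D1:**
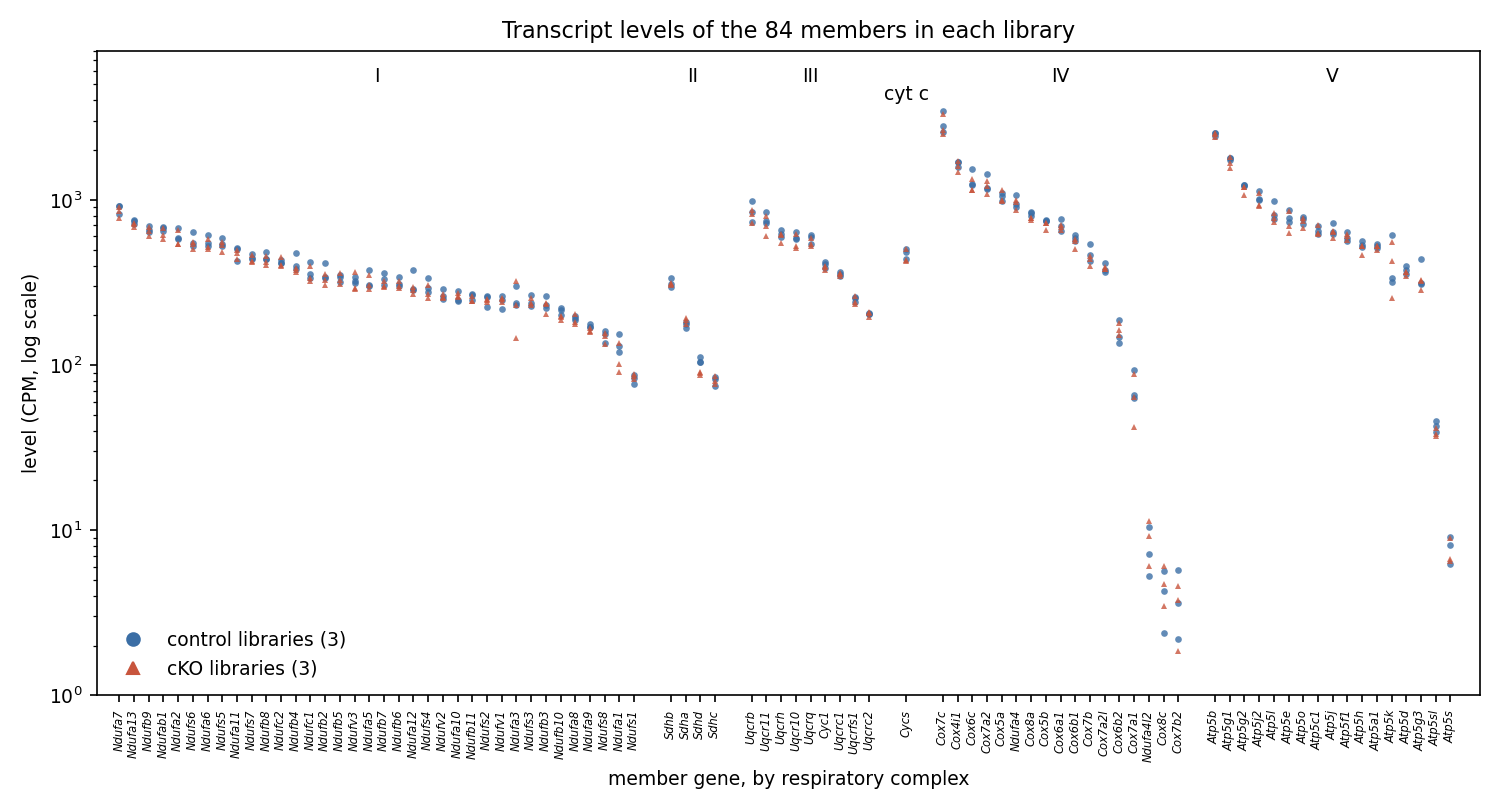
Level of each of the 84 members in the 6 libraries (vertical log axis, CPM), ordered by complex and by mean level, with circles for control and triangles for cKO libraries. Of the members 75 have a mean of at least 100 CPM, and Ndufa4l2, Atp5s, Cox8c and Cox7b2 lie lowest, at means of 8.25, 7.59, 4.44 and 3.62 CPM.

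Cox7c (chr13:86044816-86046904 in GRCm38, GENCODE M21), a small subunit of complex IV, was the most abundant member, at 2587, 2805 and 3473 CPM in controls and 2638, 2489.7 and 3289.7 CPM in cKO libraries. Atp5b, the catalytic beta subunit of the ATP synthase, followed at 2542, 2526 and 2422 CPM against 2388, 2524 and 2497 CPM. Next came Atp5g1, which encodes a copy of the membrane c-ring subunit, with 1781, 1747 and 1782 CPM against 1557, 1828 and 1679 CPM. In each of the 3 the groups overlapped. Cox7c stood furthest above Atp5b in control 3 and cKO 3 and below it in cKO 2. In the other 4 libraries Cox7c and Atp5b differed by less than the spread of Cox7c between libraries (SD 461 CPM in controls and 426 CPM in cKO libraries).

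Complex I, the NADH dehydrogenase, spanned 10.3-fold from Ndufs1 to Ndufa7. Ndufs1, which carries iron-sulfur clusters of the electron path, had 87.5, 83.3 and 76.4 CPM in controls and 87.7, 82.0 and 85.3 CPM in cKO libraries. Ndufa7, an accessory subunit, had 923, 821 and 912 CPM against 775, 861 and 901 CPM. The 7 core subunits, which carry flavin, iron-sulfur clusters or the quinone site, had a median level of 246 CPM, and the 29 accessory subunits, which surround that core, a median of 335 CPM. Ndufa13 (739 ± 20.5 CPM in controls and 708 ± 22.2 CPM in cKO libraries) and Ndufb9 (660 ± 29.0 and 646 ± 42.8 CPM; SD, n = 3 each) were the next most abundant members of complex I.

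Complex II, the succinate dehydrogenase, was the least abundant complex by its members' median, 139 CPM. Sdhb, its iron-sulfur subunit, stood at 311 CPM over the 6 libraries, Sdha, the flavoprotein that oxidises succinate, at 179.9 CPM, and the membrane anchors Sdhd and Sdhc at 97.8 and 80.6 CPM. In complex III the median was 569 CPM. Uqcrb, a quinone-binding subunit, led with 853 ± 123 CPM in controls and 807 ± 72.5 CPM in cKO libraries, followed by the small subunits Uqcr11 at 769 ± 62.0 and 698 ± 98.2 CPM and Uqcrh at 627 ± 33.1 and 595 ± 38.7 CPM (SD, n = 3 each). Its catalytic subunits Cyc1 (cytochrome c1) and Uqcrfs1 (the Rieske protein) stood lower, at 398 and 248 CPM. Cycs had 483, 506 and 438 CPM in controls and 429, 504 and 433 CPM in cKO libraries, so its groups overlapped.

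In complex IV the median was 694 CPM, and Cox4i1 (1658 ± 65.1 CPM in controls and 1596 ± 122 CPM in cKO libraries) and Cox6c (1335 ± 173 and 1209 ± 108 CPM; SD, n = 3 each) followed Cox7c. The ATP synthase had a median of 643 CPM. Besides Atp5b, Atp5g1 and Atp5g2, the membrane subunit Atp5j2 passed 1000 CPM, with a mean of 1015 CPM. The F1 subunits, which form the catalytic head with a stoichiometry that differs between them, ran from Atp5d at 368 CPM to Atp5b at 2483 CPM. Atp5s and Atp5sl, which match the name pattern but are not subunits of the enzyme, had 7.59 and 40.8 CPM.

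Where a complex IV or V subunit has more than 1 gene, the widely expressed gene gave nearly all UMIs in the COX4, COX6A, COX7B, COX8 and NDUFA4 families, while the COX7A, COX6B and c-ring families were shared. Cox4i1 gave 99.99% of the COX4 UMIs and Cox6a1 100% of the COX6A UMIs, with the muscle form Cox6a2 at 0. Cox8a gave 99.4% of its family, with Cox8c at 0.56% and Cox8b at 0. Cox7b gave 99.2% and Cox7b2 0.78%. In the pair of Ndufa4, a subunit now placed in complex IV, and its paralog Ndufa4l2, the latter gave 0.86%. The muscle form Cox7a1 gave 4.28 ± 0.56% of the COX7A family in controls and 3.90 ± 1.22% in cKO libraries (SD, n = 3 each), beside Cox7a2 at 72.9% and Cox7a2l, a factor of respiratory supercomplexes, at 23.0%. The genes for the c-ring subunit, which differ in the leader peptide and encode the same mature protein, shared their UMIs as 53.2% Atp5g1, 36.6% Atp5g2 and 10.2% Atp5g3.

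In COX6B the testis isoform Cox6b2 gave 22.0% of the UMIs and Cox6b1 the rest. Cox6b2 (chr7:4751792-4753094 in GRCm38, GENCODE M21) had 147, 136 and 187 CPM in controls and 180, 164 and 151 CPM in cKO libraries, and Cox6b1 (chr7:30616861-30626151) had 566, 591 and 615 CPM against 503, 563 and 581 CPM. Both pairs of groups overlapped. The share of Cox6b2 was 20.9 ± 2.32% in controls and 23.2 ± 2.92% in cKO libraries (SD, n = 3 each), a gap smaller than either SD.

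Among members of at least 20 CPM, Cox6b2 also varied most over the authors' clusters. The deposited metadata put 2210, 1863, 640, 343 and 98 of the cells in clusters 0 to 4, which carry no names. In cluster 4, Cox6b2 stood at 397, 435 and 358 CPM in controls and at 412, 352 and 255 CPM in cKO libraries. Its mean there was 368 ± 63.7 CPM (SD, n = 6), against 149 to 160 CPM in clusters 0 to 3, and the lowest library of cluster 4 lay above the highest value of any library in the other clusters, 199.96 CPM. The cells of cluster 4 held 440 UMIs of Cox6b2, with at most 15 in 1 cell, so no single cell carried the level.

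Cox6b1 had means of 548 to 612 CPM over the 5 clusters, and the share of Cox6b2 in the pair was 37.6 ± 5.66% in cluster 4 against 20.2% to 22.2% in the others (SD over 6 libraries). Of the 4938 genes averaging 20 CPM or more, 12 (0.243%), Cox6b2 among them, had a ratio of cluster 4 to the mean of the other clusters as high as its 2.38. The next highest member ratio was 1.26, for Ndufb6. Clusters were made from the same counts, so these differences are a description and carry no test. Each library gave 10 to 27 cells to cluster 4.

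**Figure D2:**
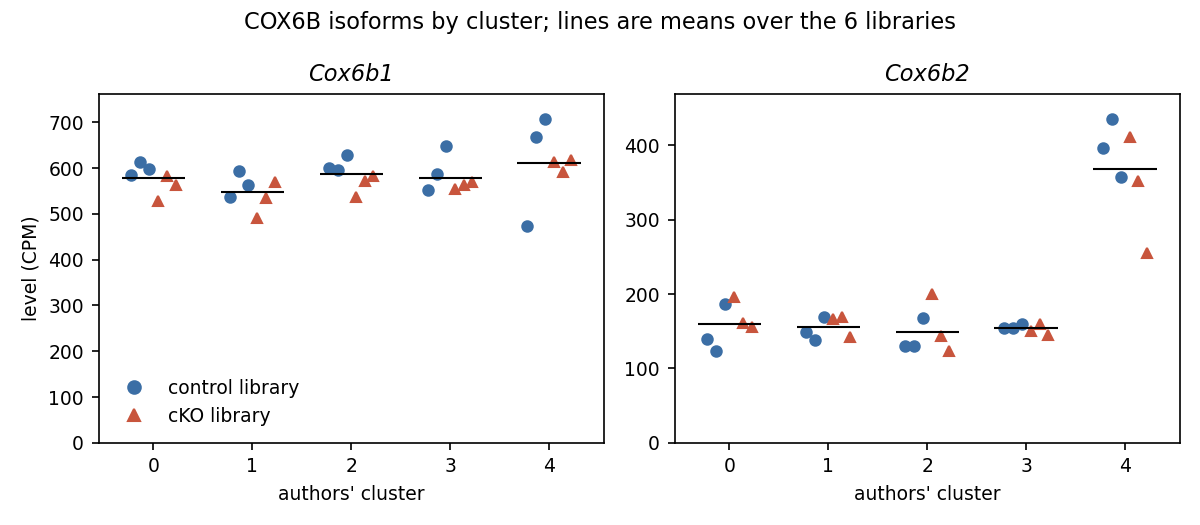
Level of Cox6b1 (left) and Cox6b2 (right) in each of the authors' 5 clusters (CPM of the cluster's summed counts, linear axes from 0), with circles for control libraries, triangles for cKO libraries and lines at the mean of the 6 libraries. All 6 libraries of cluster 4 lie at 255 CPM or above for Cox6b2, and no library of another cluster exceeds 199.96 CPM.

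Among members of at least 20 CPM, the next widest ranges over the clusters, as log2 of the highest over the lowest cluster mean, were 0.45 for Cox8a and 0.39 for Ndufs1, against 1.31 for Cox6b2. Members under 20 CPM, on few UMIs, ran from 0.50 for Ndufa4l2 to 1.67 for Cox7b2. Cox8a, the common form of its family, had 834 CPM in cluster 0, 733 CPM in cluster 1 and 998 CPM in cluster 4. The narrowest were the stalk subunit Atp5o at 0.04 and the complex I accessory subunits Ndufb10 and Ndufa8 at 0.05 each. As a share of UMIs the members made up 4.54%, 4.34%, 4.56%, 4.39% and 4.68% in clusters 0 to 4.

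Between the largest clusters, the summed level was lower in cluster 1 than in cluster 0 in 6 of 6 samples, at 43106 ± 1420 CPM against 45114 ± 1285 CPM (SD, n = 6). A total of 38 members stood lower in cluster 1 in all 6 samples, beside 13.4% of all genes tested. Only 3 stood higher in all 6 (Uqcrfs1, Cycs and Atp5s, chosen after their values were seen), beside 14.1% of all genes. The median log2 ratio was -0.06 for members and 0.00 for all genes. Atp5b was an example, with 2567 CPM in cluster 0 and 2313 CPM in cluster 1, while Cycs went the other way, with 458 and 481 CPM. The cluster 4 sum, 46500 ± 1647 CPM, was above that of cluster 0 in 6 of 6 samples.

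The comparison of cKO with control samples asks whether loss of Rb1 goes with a change in these transcripts. No member passed the threshold in edgeR's quasi-likelihood test over 11540 genes, and no gene did (0 called, 0% of those tested). At an unadjusted p under 0.05 the test gave 1 member and 405 genes (3.51%), and DESeq2 called 3 genes and 0 members. The members leaned to lower values in cKO libraries: 75 of 84 had a log2 fold change below 0, or 89.3%, beside 49.9% of all genes tested, with a median of -0.07 beside 0.00. The summed level was 44713, 43667 and 48294 CPM in controls and 41188, 43558 and 45556 CPM in cKO libraries. These sums, 45558 ± 2427 and 43434 ± 2187 CPM (SD, n = 3 each), carry TMM factors. On them the groups overlapped and the gap was smaller than either SD. Without the factors the members made up 4.47%, 4.45% and 4.65% of UMIs in controls and 4.25%, 4.36% and 4.46% in cKO libraries. These shares also overlapped, but the gap between their group means was larger than either SD. In each cluster, also without the factors, the gap between the group means was again larger than either SD. For cluster 0 the means were 45924 ± 968 and 44304 ± 1105 CPM (SD, n = 3 each). The groups overlapped in clusters 0 and 1 and not in clusters 2, 3 and 4. A p that misses the threshold does not show equal levels. In summed libraries, fewer cells with a transcript and less of it per cell cannot be told apart.

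Control 3 and cKO 1 lay at the ends of this lean. Control 3 was the highest library for 43 members (51.2%, beside 24.2% of all genes) and cKO 1 the lowest for 45 (53.6%, beside 16.7%). These CPM carry TMM factors, which were lowest in control 3 (0.965) and highest in cKO 1 (1.03). The scaling thus widened the gap between these libraries. Without it they still had the highest and the lowest share of UMIs in members, 4.65% and 4.25%. Leaving out either of these extremes brings the groups closer by construction. Across all single omissions, 61 to 75 members were below 0 and the median ran from -0.10 to -0.03. The share of all genes below 0 is not given for these alternatives. With control 3 left out, 66 of 84 members were below 0, and with cKO 1 left out 61 were, with a median of -0.03 in each case. With both left out, an alternative chosen after seeing the data that by construction brings the groups closer, 44 of 84 members were below 0. Control 3 was also the library with the highest Sertoli marker level, 26.4 CPM, and the part of such differences in the lean was not tested.

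**Figure D3:**
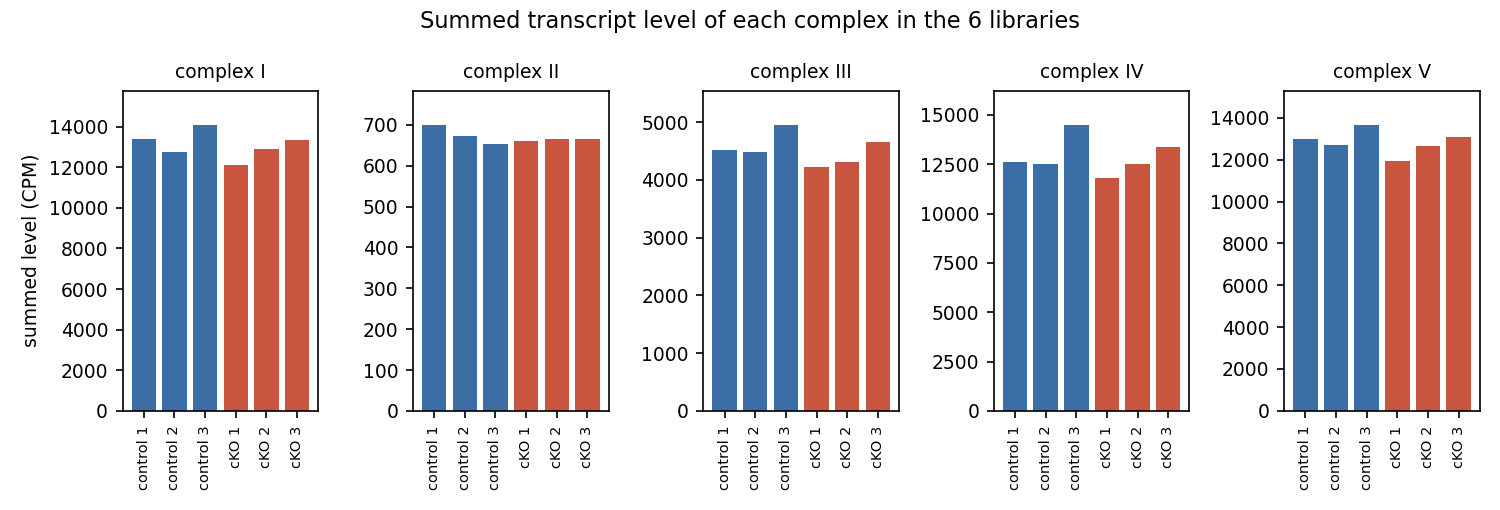
Summed level of the members of each complex in the 6 libraries (bars, CPM, each axis from 0), with controls in blue and cKO libraries in red. Control 3 is the tallest and cKO 1 the shortest bar in complexes I, III, IV and V. The groups overlap in each complex on this scale, which carries the TMM factors.

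Complex by complex, the medians of the log2 fold change were -0.06 in complex I (33 of 36 below 0), -0.01 in complex II (2 of 4), -0.08 in complex III (9 of 9), -0.07 in complex IV (14 of 17) and -0.08 in complex V (16 of 17), and Cycs had -0.06. With 1 library left out, the complex IV median turned to 0.02 (without control 3) and was otherwise between -0.11 (without cKO 3) and -0.01 (without cKO 1). Without control 3 and without cKO 1, in that order, complex I had -0.04 and -0.03, complex III -0.03 and -0.02, and complex V -0.04 and -0.04. Without control 2, complex I had -0.10 and complex IV -0.10. The complex II median, near 0, ran from -0.04 to 0.04 and changed sign without control 1, cKO 1 or cKO 3. Within complex I the 7 core subunits had a median of -0.01 and the 29 accessory subunits -0.08. Within complex V the F1 subunits had -0.03, and the c-ring and the stalk and membrane subunits -0.08 each. Summed levels were 13421 ± 665 and 12792 ± 605 CPM for complex I, 4654 ± 259 and 4399 ± 233 CPM for complex III, 13211 ± 1113 and 12560 ± 792 CPM for complex IV and 13121 ± 487 and 12564 ± 582 CPM for complex V, in controls and cKO libraries (SD, n = 3 each). Complex II stood at 675 ± 24.0 and 664 ± 2.53 CPM. Each of these differences, on CPM with TMM factors, was smaller than the larger of its SDs, and the libraries of the groups overlapped. Taking these factors out, the complex V groups no longer overlapped over all cells, while those of the other complexes still did. Within clusters, also on CPM without these factors, the complex V groups did not overlap in clusters 0, 1 and 2. In cluster 0 they stood at 13308 ± 21.7 and 12851 ± 273 CPM (SD, n = 3 each). Complex I parted without overlap in cluster 2, complex III in cluster 3 and complex IV in cluster 4. All other sums of a complex in a cluster overlapped.

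**Figure D4:**
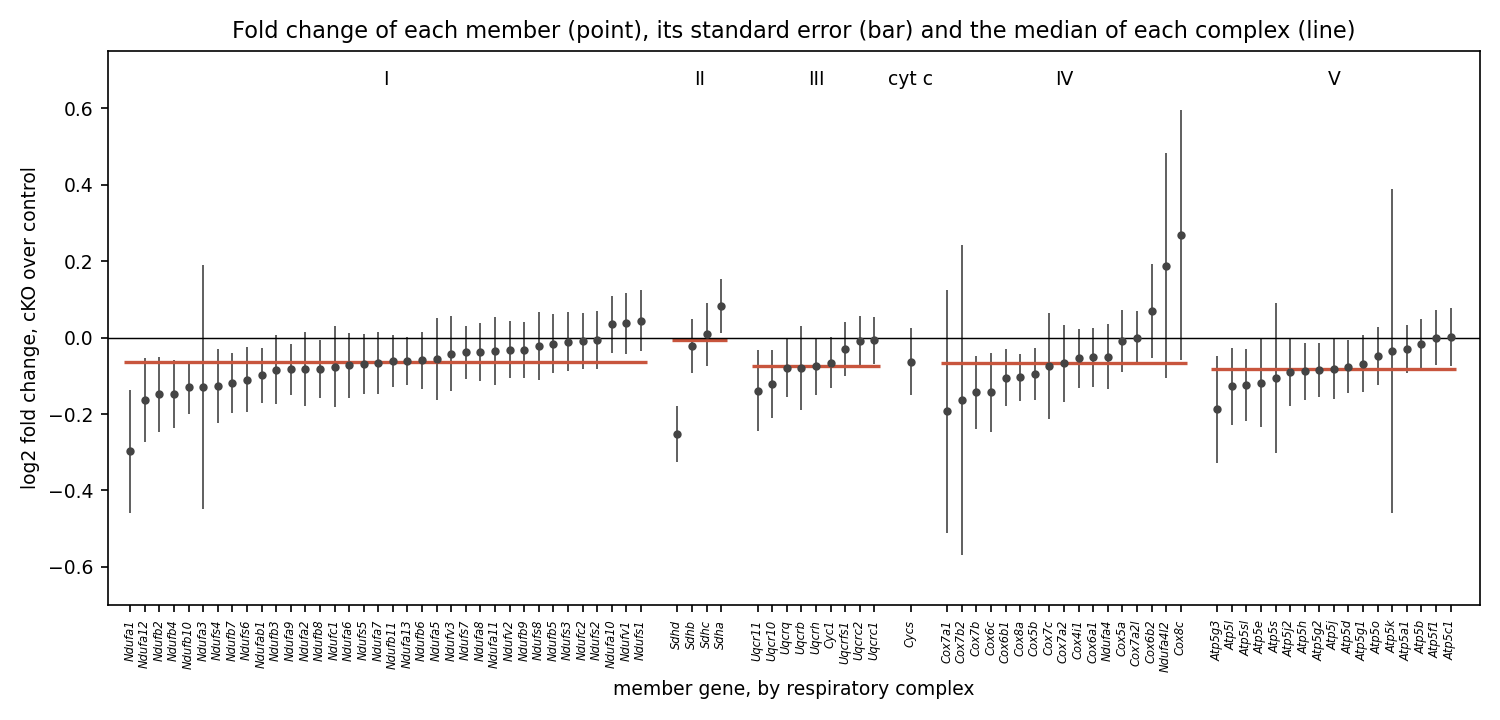
Log2 fold change of each member, cKO over control, ordered within each complex (points, with bars of 1 standard error), and the median of each complex (red lines). Of the 84 points 75 lie below 0, Sdhd lies at -0.25, and the widest bars belong to Atp5k, Cox7b2, Cox7a1, Ndufa3 and Cox8c.

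Sdhd, on chr9:50596357-50603812 in GRCm38 (GENCODE M21), was the member with the smallest unadjusted p. It encodes a membrane anchor of complex II and had 104, 112 and 104 CPM in controls and 90.4, 87.4 and 90.03 CPM in cKO libraries. The groups did not overlap, and its SDs were 4.71 and 1.62 CPM. The log2 fold change was -0.25 ± 0.07 (SE), with a p of 0.0061 and an edgeR adjusted p of 0.994, which did not pass the threshold, on 728 to 1732 UMIs per sample. Of its partners, Sdha had 176, 182 and 166 CPM against 187, 176 and 192 CPM, with a log2 fold change of 0.08 ± 0.07, and those of Sdhb and Sdhc were -0.02 ± 0.07 and 0.01 ± 0.08. Leaving out 1 library at a time kept the value of Sdhd between -0.27 and -0.21.

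Non-overlapping groups were found for 6 members, all lower in cKO libraries (beside 4.23% of all genes), and for 0 members higher (beside 4.71%). After Sdhd these were the complex I accessory subunits Ndufb10 (216, 200.02 and 222 CPM against 188, 199 and 197 CPM) and Ndufa9 (169, 177 and 169 CPM against 159, 168 and 159.5 CPM). The complex IV subunits were Cox8a (832, 803 and 845 CPM against 759, 773 and 776 CPM) and Cox5b (756, 740.0 and 749 CPM against 654, 726 and 722 CPM), and the c-ring gene was Atp5g2 (1212, 1237 and 1230 CPM against 1068, 1196 and 1204 CPM). Log2 fold changes of these 5 ran from -0.13 to -0.08, and the smallest unadjusted p among them was 0.0928. In Ndufb10, Ndufa9 and Atp5g2 the nearest libraries of the groups almost met.

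Among members of at least 20 CPM, the lowest log2 fold change was that of Ndufa1 (chrX:37187588-37191163), an X-linked membrane subunit of complex I, at -0.30 ± 0.16. It had 119, 131 and 153 CPM in controls and 101, 91.3 and 136 CPM in cKO libraries, with an overlap through cKO 3. Its log2 fold change was -0.18 without cKO 2, -0.19 without control 3, -0.24 without cKO 1 and -0.49 without cKO 3, and without cKO 2, control 3 or cKO 1 it no longer lay below that of Sdhd. Cox7a1 had -0.19 ± 0.32, from 62.9, 65.99 and 93.3 CPM against 64.3, 41.9 and 88.4 CPM. The highest were Sdha at 0.08, Cox6b2 at 0.07 ± 0.12 and Ndufs1 at 0.04 ± 0.08. The edgeR adjusted p was 0.994 for each of these 5.

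Members also leaned to lower values in cKO libraries within the authors' clusters, which hold cells of the same libraries. Those with a log2 fold change below 0 numbered 69 of 84 in cluster 0, 74 of 84 in cluster 1, 62 of 82 in cluster 2 and 59 of 80 in cluster 3, beside 50.3%, 50.3%, 51.5% and 50.4% of the genes tested there. The member medians were -0.06, -0.08, -0.06 and -0.05. With 1 library left out they ran from -0.09 to -0.03 in cluster 0, from -0.11 to -0.04 in cluster 1, from -0.08 to -0.04 in cluster 2 and from -0.08 to -0.01 in cluster 3. The medians nearest 0 came without cKO 1 in clusters 0, 1 and 3 and without control 3 in cluster 2. Cluster 0 had its lowest without control 2 and cluster 3 without cKO 3 or control 2 (-0.08 each), and without control 3 cluster 1 also stood at -0.04. Members below 0 then numbered 61 to 74, 65 to 76, 57 to 67 and 47 to 62 in clusters 0 to 3. In clusters 0 to 3, 0 genes were called by edgeR (3.88%, 3.37%, 4.04% and 3.37% at an unadjusted p under 0.05, with 1, 1, 2 and 0 members), and cluster 4 had too few cells per library for a test. Cluster 3 held 25 cells of control 3, with a median of 4654 UMIs against 12699 to 15999 in the other libraries, and its Sertoli and stromal markers reached 28.6 and 27.6 CPM. For the difference of the cKO effect between cluster 1 and cluster 0, 41 of 84 members were below 0, beside 47.2% of genes, with a median of 0.00, and 0 members were called, the smallest edgeR adjusted p being 0.952 for Uqcrb. That test called 2 of 10413 genes (0.0192%), neither a member, and at an unadjusted p under 0.05 stood 1 member and 5.03% of genes.

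Transcript length was set beside the fold changes and the spread between libraries. Lengths are medians over all annotated coding transcripts of a gene and need not be that of the form present in these cells. By this measure members are short, with a median of 671 bases by GENCODE M21 against 1309 bases for the other genes of at least 100 CPM. Ndufs1 had 651 bases and Ndufb2 2413, so genes may be misplaced across a limit of 1000 bases. The 63 members shorter than 1000 bases had a median log2 fold change of -0.08 and the 21 longer ones -0.02. Among other genes of at least 100 CPM, 58.5% of the 516 short ones and 41.6% of the 850 long ones were below 0. In control 3 the short members had a median deviation of 0.13 (log2) from their mean over libraries, and in cKO 1 one of -0.12. The long members had -0.03 and -0.06 in these libraries. The other short genes of at least 100 CPM went the same way as the short members, with 0.05 and -0.05. The other long genes had -0.005 and -0.004. The part of length in the lean was not tested beyond these values.

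**Figure D5:**
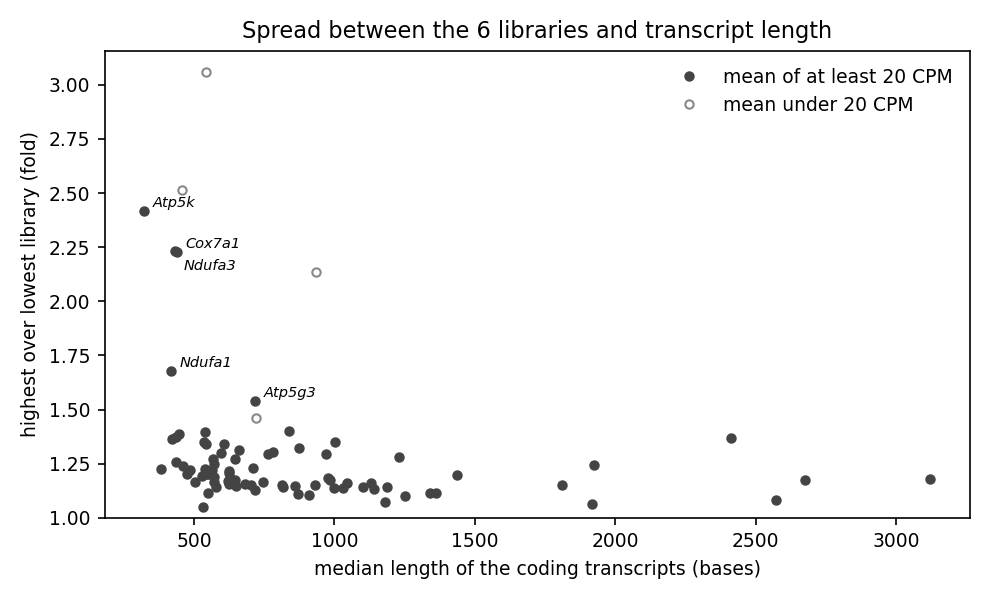
Fold between the highest and the lowest of the 6 libraries for each member (vertical axis) against the median length of its coding transcripts (horizontal axis, bases), with open circles for members under 20 CPM. The members with a fold of at least 2 are all shorter than 1000 bases, and Atp5k lies highest among the members of at least 20 CPM.

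The largest spread between libraries at a level of at least 20 CPM was in 3 short genes. Atp5k, the small membrane subunit e of the ATP synthase, had 336, 316 and 614 CPM in controls and 428, 254 and 554 CPM in cKO libraries, a 2.42-fold range that ran through both groups. Ndufa3, a complex I accessory subunit, had 237, 230.5 and 299.95 CPM against 232, 145 and 325 CPM, and Cox7a1 had the same 2.23-fold range as Ndufa3. In all 3 genes control 3 and cKO 3 were the highest libraries of their groups and cKO 2 the lowest of the 6. Over the 84 members, Spearman's rho of length with this fold was -0.47, a description across genes that share libraries. It was -0.05 for the 1366 other genes of at least 100 CPM with a known length and 0.09 for all other genes tested. Those sets reach to longer transcripts than most members. Among genes shorter than 1000 bases it was -0.37 for members and -0.15 for the 516 other genes of at least 100 CPM. Among those of 1000 bases or longer it was 0.08 for members and 0.08 for the others.

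For some members the count may hold molecules of other genes. A total of 16 members shared stretches of 98 bases within their last 400 bases with transcripts of other genes, such as Atp5l with 69.97% of its stretches, Atp5g2 at 45.2%, Ndufs3 at 43.2%, Atp5h at 40.7% and Cox7c at 31.5%, and their levels are uncertain. In 11 members an exon of another gene lay over those bases, 9 of them on the opposite strand. Tfpt over Ndufa3 and Donson over Atp5o were examples, at 25.9 and 13.1 CPM, and the sources used here do not say whether counting took strand into account. Sdhd, Cox6b1 and Cox6b2 shared none of their 3' bases in either way.

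Other genes of the pathway were compared from fixed lists. Of 52 assembly factors, which build the complexes without being part of them, 49 were tested and 0 called. Of these 35 were below 0, beside 49.9% of all genes, with a median of -0.04. Groups did not overlap for 5 lower and 1 higher (Atpaf1) in cKO libraries, beside 4.23% and 4.71% of all genes. At an unadjusted edgeR p under 0.05 stood 4, beside 3.51% of all genes, and the smallest p was that of Uqcc2. Uqcc2, a complex III assembly factor, had 620.0, 633 and 637 CPM in controls and 528, 564 and 541 CPM in cKO libraries. Its groups did not overlap, and it had a log2 fold change of -0.21 ± 0.06 (SE; edgeR adjusted p = 0.994, unadjusted p = 0.0076). The ATP synthase components Usmg5, 2010107E04Rik and Atpif1, whose names the pattern misses, had -0.09, -0.12 and -0.05.

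Of the mitochondrially encoded partner subunits, 4 of 13 were below 0, with a median of 0.02, and their summed level was 38225 ± 1051 CPM in controls and 38543 ± 2352 CPM in cKO libraries (SD, n = 3 each). Of 15 regulators of mitochondrial gene expression 13 were tested, with 6 below 0, a median of 0.01 and 0 called. Among these regulators 1 gene was lower and 0 were higher in cKO libraries without overlap, beside 4.23% and 4.71% of all genes. That gene was Esrra, which encodes an estrogen-related receptor. It had 3.38, 4.78 and 7.13 CPM in controls and 3.10, 3.01 and 2.73 CPM in cKO libraries. On the log2 scale this was -0.82 ± 0.28 (SE; edgeR adjusted p = 0.994). The mean of Esrra, 4.02 CPM, lies under the 20 CPM minimum used in naming members, so these values rest on few UMIs.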

How the data were processed

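The authors deposited a table of UMI counts, in whole numbers, with 27998 symbols as rows and 5160 barcodes as columns, and a second file with each barcode's sample and cluster. Cell Ranger, Seurat 3.0 and the build mm10 were used, per the submitters' processing notes, while the annotation release and the counting parameters are not given in the sources used here. Each row named a gene.

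Barcodes were required to hold 500 or more genes and less than 10% mitochondrial UMIs, and 6 failed. Scrublet (scanpy 1.11.5, per sample) called 160 cells doublets (3.10%), which were kept, and removed in an alternative. Counts were summed per sample, or per sample and author cluster (at least 20 cells each), and tested in R 4.3.3 with edgeR 4.0.16 (quasi-likelihood, robust dispersion, filterByExpr, TMM, two-sided). p-values were adjusted by Benjamini-Hochberg over all genes tested, at a threshold of 0.05. The test was checked on simulated data. The difference between clusters 1 and 0 was tested with sample as a block.

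CPM over all cells carry the TMM factors, and CPM within clusters and marker sums do not. Transcript lengths are medians of coding transcripts in GENCODE M21, matched by symbol.

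Members, gene lists and motifs were chosen with earlier results of these data known, so no test was made over a list. Named members were, per complex, the 3 of highest mean CPM, Cycs, the 3 highest and 3 lowest fold changes, the isoform families, the 3 widest and 3 narrowest ranges over clusters (each from 20 CPM) and up to 6 whose groups do not overlap; genes named for their spread between libraries, shared 3' bases or role were added afterwards. Alternatives were RLE factors or library totals, no low-count filter, DESeq2 1.42.0, a replicate block, all barcodes, no called doublets, no cells of cluster 3 and each sample left out.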

Additional observations from a re-analysis of the deposited data

Results flagged for a closer look

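The effect of the cKO differed between clusters 1 and 0 for 2 genes, neither of them a member, by the edgeR test of the difference. For Retn, which encodes the hormone resistin, the effect in cluster 1 minus that in cluster 0 was 2.33 ± 0.26 on the log2 scale (SE; edgeR adjusted p = 2.2e-08), with 12.3 CPM in controls and 8.75 CPM in cKO libraries in cluster 0 and 6.16 and 20.2 CPM in cluster 1. For Zfp607, a zinc finger gene, the difference was 2.5 ± 0.39 (adjusted p = 0.00013), with 6.91 and 3.09 CPM in cluster 0 and 4.16 and 8.07 CPM in cluster 1.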

How the results depend on the processing

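Over 15 alternatives for all cells and those within clusters, 0 members were called, and the smallest adjusted p of a member was 0.539. Genes called over all cells numbered 0 in the main analysis, 6 without a low-count filter, 3 by DESeq2, 0 to 4 with 1 library left out (4 without control 3) and 2 with control 3 and cKO 1 both left out. With 1 library left out, members below 0 ranged from 61 to 75 and their median from -0.10 to -0.03. With both left out, 44 were below 0, and the medians of complexes I and V were 0.0062 and -0.0115. A control and a cKO library of the same replicate number had correlations of -0.13, 0.23 and 0.20 for numbers 1, 2 and 3. These are correlations of deviations from the group means over genes. Pairs of different numbers ran from -0.30 to 0.16, below the values for numbers 2 and 3. Whether the numbers pair the samples was not settled. With a replicate block 74 members were below 0 and the median was -0.07. Genes called within clusters 0, 1 and 2 ranged from 0 to 2 with 1 library left out (2 without control 3 in each) and in cluster 3 from 0 to 3, with 1 under the replicate block. For the difference between clusters they ranged from 1 to 6 (6 without control 1, 1 without control 3, 4 without cKO 1). Of 36 named members 13 kept their sign throughout.

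Cox7a2l turned to 0.013 with library totals only and to 0.0007 with the replicate block. With control 3 and cKO 1 both left out, the log2 fold changes that turned were those of Ndufa7 (0.012), Ndufb9 (0.0069), Uqcrb (0.10), Uqcrh (0.015), Cox7c (0.097), Cox4i1 (0.012), Cox6c (0.0007), Cox7a1 (0.017), Ndufs1 (-0.034), Cox6a1 (0.038), Cox7a2 (0.098), Cox7b (0.0052), Cox7b2 (0.55), Atp5g3 (0.052), Ndufa4 (0.076), Ndufa4l2 (-0.075), Atp5o (0.012) and Ndufa8 (0.017). With 1 library left out, the ranges that crossed 0 were -0.079 to 0.017 for Ndufb9, -0.058 to 0.032 for Sdhb, -0.039 to 0.056 for Cox7a2l, -0.018 to 0.22 for Cox6b2, -0.17 to 0.035 for Uqcrb, -0.20 to 0.059 for Cox7c, -0.49 to 0.044 for Cox7a1, -0.0083 to 0.091 for Ndufs1, -0.11 to 0.017 for Cox6a1, -0.13 to 0.038 for Cox7a2, -0.44 to 0.31 for Cox7b2, -0.033 to 0.55 for Cox8c, -0.096 to 0.022 for Ndufa4, -0.11 to 0.002 for Cox4i1, -0.037 to 0.0075 for Atp5b, -0.0062 to 0.47 for Ndufa4l2 and -0.095 to 0.0058 for Atp5o. The cause of these turns was not tested. Members under 20 CPM rest on as few as 15 UMIs in a library, so small differences in them were not detectable at this depth.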
